A study of Mus musculus with 6 samples.

Results

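The subject is a set of transcription factors that give the intestinal lining its identity, read in mouse small intestinal crypts with and without loss of imprinting of Igf2. The genes were chosen by name, and 7 are reported here, Cdx1, Cdx2, Hnf4a, Gata4, Gata6, Pdx1 and Klf5. Of these, 5 were paired with a probe through the RefSeq accession on the array, by 6 of the 41006 probes, and 2 of those probes read Cdx2. No probe was paired with Gata4 or Gata6, which were not analysed here.

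Crypts were cut by laser microdissection from frozen sections taken midway along the small intestine of 6 mice of the C57BL/6 strain, all 120 days old. The 3 LOI(+) mice had inherited from their mother a deletion that removes the H19 gene and the differentially methylated region upstream of it, which per the series' design turns on the maternal copy of Igf2. The 3 LOI(-) mice were wild type, with a silent maternal Igf2, from the same kind of cross. The deletion is inherited, so it is not limited to the crypt. Each mouse had 1 array, with its own RNA in the Cy3 channel. The Cy5 channel held Universal Mouse Reference RNA, which is pooled from lines grown in culture, among them liver and kidney lines but no line named as intestinal. A value is the log2 ratio of Cy3 over Cy5, so that 0 means equal signal in crypt and reference RNA after each array was normalized, and a group is described by its mean and standard deviation (SD, n = 3 mice).

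As background, Cdx1 and Cdx2 are homeobox factors related to the fly gene caudal. Cdx2 sets the boundary between stomach and intestine in the embryo and keeps the adult epithelium intestinal, and Cdx1 is strongest in the crypts and toward the distal gut. Hnf4a, a nuclear receptor, drives genes of absorptive enterocytes and also acts in liver, kidney and pancreas. Gata4 marks the upper part of the small intestine and Gata6 is made along its whole length. Pdx1 is a homeobox factor of the pancreas and duodenum, and Klf5 is a zinc finger factor of dividing crypt cells.

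The oligonucleotides that read the factors are shown for the member with the highest ratio, Klf5, and for the gene with 2 probes, Cdx2, since those 2 probes give separate readings of a single gene. They are printed in the order of bases given in the deposited files, whole for Klf5 and as the first 30 bases for Cdx2. The capitals in Klf5 mark the longest run, 14 bases, that it has in common with a probe of another gene or an unnamed probe on the array.

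Klf5: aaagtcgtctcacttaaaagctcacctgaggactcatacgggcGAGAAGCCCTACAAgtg
Cdx2 P129761: gcgagaatcctcagaagagattcctctcct
Cdx2 P130992: cgcagaactttgtcagtcctccgcagtacc

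Each probe of the factors was 60 bases long. The G and C content was 50% for Klf5, 51.7% and 63.3% for the Cdx2 probes P129761 and P130992, 55% for Cdx1, 46.7% for Hnf4a and 45% for Pdx1. The longest run in common with another gene's or an unnamed probe was between 13 and 15 bases for the 6 probes. That search covered probes on the array and not the transcripts they can bind.

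Median feature signals in Cy3 ranged from 552 to 603 over the arrays, and LOI(+) 2 stood apart most, with the lowest mean correlation with the other arrays across genes, 0.948, and 146 features marked as outliers, none of them a probe of these factors. The 95th percentile of the negative controls on an array is called the control limit here. All 9 epithelial markers passed it in Cy3 in every mouse, but so did all 8 markers of smooth muscle and fibroblasts and all 7 immune markers, so passing it does not tell these cells apart. The epithelial markers had a median ratio over the reference of 4.04, from 0.025 for Krt18 to 5.82 for villin, Vil1, and the smooth muscle and fibroblast markers a median of -1.12. In the fit across all 37939 genes and unnamed probes, 0 (0%) differed between LOI(+) and LOI(-) at an adjusted p of 0.05 in limma, against 2335 (6.15%) at an unadjusted p under 0.05. Without moderation of the spread, 0 passed after adjustment and 2117 at the unadjusted level. Accordingly, 0 of the 5 factors passed, and 1 of 5 (Cdx1) had an unadjusted p under 0.05. In the same fit 51.3% of features had a higher mean in LOI(+), against 0 of the 5 factors reported. The median difference, LOI(+) minus LOI(-), was -0.12 for the 5 factors and 0.0030 for all features. In RNA from whole crypts, fewer cells that make a factor and less of its RNA per cell cannot be told apart.

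Klf5, which promotes division of crypt cells, was the factor that stood highest over the reference. Its log2 ratio was 3.27, 3.01 and 3.18 in the LOI(-) arrays and 2.93, 2.90 and 3.14 in the LOI(+) arrays. The groups overlapped, because LOI(+) 3 lay above LOI(-) 2, and the lowest values came from LOI(+) 1 and LOI(+) 2. The mean over the 6 arrays, 3.07, corresponds to 8.40 times the reference and exceeded the mean ratio of 98.7% of the 12362 named genes. The LOI(-) mean was 3.15 ± 0.13 (SD, n = 3) and the LOI(+) mean 2.99 ± 0.13 (SD, n = 3). The difference of -0.16 ± 0.094 (SE), with a 95% interval from -0.39 to 0.059, had an adjusted p of 0.826 in limma. It did not keep its sign under scale normalization between arrays, where it was 0.035. It was -0.055 with no background correction and lay between -0.24 and -0.11 when each array was left out in turn.

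Cdx1, the caudal factor of the crypt, was the only factor whose arrays did not overlap between the groups. Its ratio was 0.83, 1.01 and 1.19 in LOI(-) and 0.81, 0.64 and 0.59 in LOI(+). All 3 LOI(+) values lay below all 3 LOI(-) values, with LOI(-) 1 and LOI(+) 1 only just apart. The LOI(-) mean was 1.01 ± 0.18 (SD, n = 3) and the LOI(+) mean 0.68 ± 0.12 (SD, n = 3), a difference of -0.33 ± 0.10 (SE). On the linear scale LOI(+) was at 0.795 of the LOI(-) value, and the 95% interval of the log2 difference ran from -0.58 to -0.084. In limma the unadjusted p was 0.0159 and the adjusted p 0.80, so Cdx1 did not pass the test. Among all features, 2.22% were lower in LOI(+) at an unadjusted p under 0.05 and 3.93% higher. All 3 mice of a group lay on the same side of the other group for 11.3% of features, 4.94% lower and 6.37% higher in LOI(+), and for 1 of 5 factors. The Cdx1 difference lay between -0.42 and -0.24 when each array was left out in turn. The unadjusted p was under 0.05 in 18 of the 22 alternatives, and the smallest adjusted p among them was 0.52. Rquantile normalization, the signal filter, keeping outlier features and averaging probes left the Cdx1 difference unchanged, so they add little to that count. In limma the unadjusted p was 0.108 with only the mice with a sex label, 0.0552 without LOI(+) 3 and 0.0584 at an offset of 0. Without moderation of the spread it was 0.0537.

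**Figure D1:**
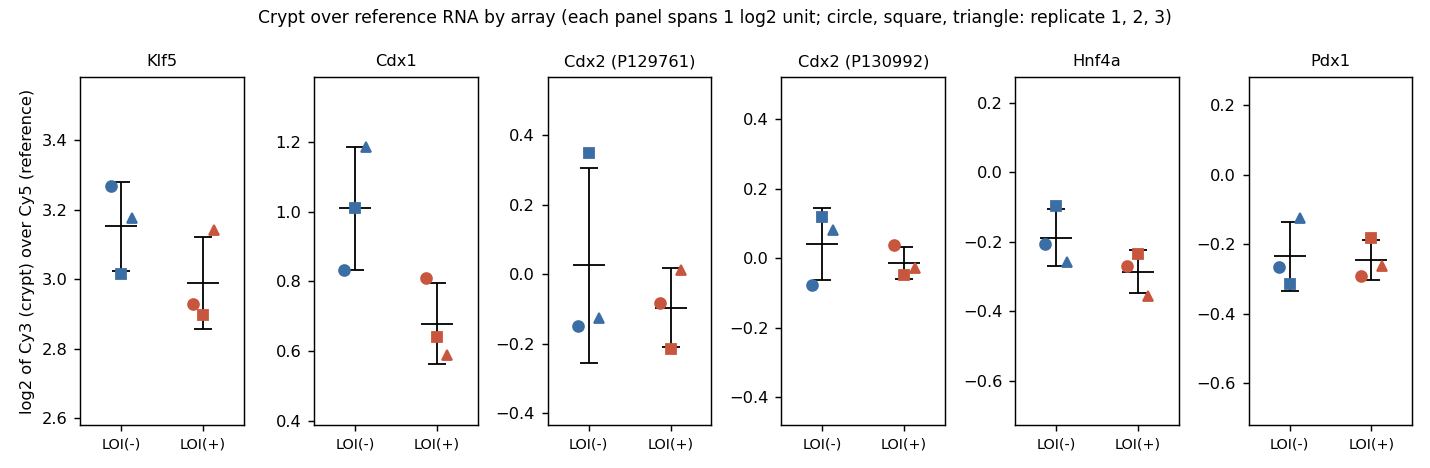
Log2 ratio of crypt over reference RNA for the 6 probes of the 5 factors, by array; each panel spans 1 log2 unit with its own centre, circles, squares and triangles are replicates 1, 2 and 3, and the black bar and whiskers are the mean and SD of 3 mice. The LOI(+) points of Cdx1 lie below the LOI(-) points, and in the other 5 panels the groups overlap.

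The Cdx1 probe was dim in both channels, which limits how well its difference is measured. Its Cy3 signal was 536, 522 and 545 in LOI(-) and 506, 511 and 489 in LOI(+), where the control limit was 439 to 449. Its reference signal lay between 416 and 444 in Cy5, where the limit was 388 to 393. Both channels passed it in every mouse. In the Cy3 channel alone, with no use of the reference, Cdx1 differed by -0.35. With no background correction, which leaves a common floor in both channels, the difference was -0.096, and with a smaller added offset, tried after seeing the data, it was -0.42 at an offset of 10 and -0.44 at 0. The sign was the same in each of these.

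Cdx2, the main intestinal homeobox factor, had ratios near 0 by both probes. The brighter probe, P129761, gave -0.15, 0.35 and -0.12 in LOI(-) and -0.083, -0.22 and 0.012 in LOI(+). The LOI(-) 2 value stood above the other 5, and the groups overlapped. The other probe, P130992, gave -0.076, 0.12 and 0.081 in LOI(-) and 0.038, -0.049 and -0.029 in LOI(+), with LOI(-) 2 again the highest. By the brighter probe the LOI(-) mean was 0.026 ± 0.28 (SD, n = 3), the LOI(+) mean -0.096 ± 0.11 (SD, n = 3) and the difference -0.12 ± 0.14 (SE), with a 95% interval from -0.46 to 0.21 and an adjusted p of 0.896 in limma. By the dimmer probe the difference was -0.054 ± 0.070 (SE). Without LOI(-) 2 the sign turned at the brighter probe, to 0.040.

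The raw signals show what lies behind a Cdx2 ratio near 0. The brighter probe read between 720 and 888 in Cy3 and between 1065 and 1432 in Cy5, well over the negative controls in both channels and higher in Cy5 on every array. The dimmer probe read 484 to 523 in Cy3 and 490 to 540 in Cy5. The ratio near 0 at the brighter probe is thus one that holds after normalization of each array, and its signals were not at the negative controls.

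**Figure D2:**
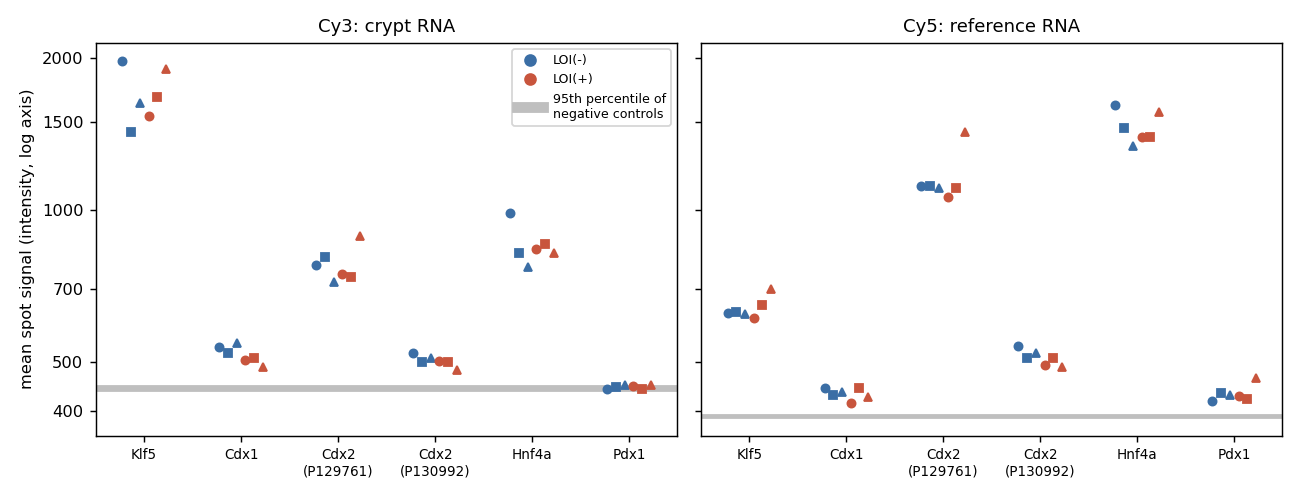
Mean spot signal of each probe on the 6 arrays on a log axis, crypt RNA (Cy3) on the left and reference RNA (Cy5) on the right, with marker shapes for replicates 1 to 3; the grey band spans the 95th percentile of the negative controls over the arrays. Pdx1 lies at the band in Cy3, between 442 and 452, while Klf5, Hnf4a and Cdx2 P129761 lie far above it.

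Hnf4a, the nuclear receptor of enterocytes and hepatocytes, gave ratios below 0 on every array. They were -0.21, -0.098 and -0.26 in LOI(-) and -0.27, -0.24 and -0.35 in LOI(+). LOI(+) 3 was the lowest and LOI(-) 2 the highest, and the groups overlapped. The LOI(-) mean of -0.19 ± 0.082 (SD, n = 3) and the LOI(+) mean of -0.29 ± 0.062 (SD, n = 3) differed by -0.098 ± 0.067 (SE), with a 95% interval from -0.26 to 0.059 and an adjusted p of 0.834 in limma. The signal was between 774 and 988 in Cy3 and between 1340 and 1619 in Cy5. The reference pool thus gave at least as much signal at this probe as the crypts, relative to the other genes on each array. How much of it comes from Hnf4a was not tested.

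Pdx1, the factor of the pancreas and duodenum, was at the limit of detection in crypt RNA. Its Cy3 signal was 443, 446 and 450 in LOI(-) and 448, 442 and 452 in LOI(+), and 3 of the 6 arrays passed the control limit. The ratios were -0.27, -0.32 and -0.12 in LOI(-) and -0.29, -0.18 and -0.26 in LOI(+), and the groups overlapped. The difference of -0.0095 ± 0.070 (SE) had a 95% interval from -0.18 to 0.16, and limma gave an adjusted p of 0.988. Pdx1 and Cdx2 neighbour each other on the same chromosome in the RefSeq table of GRCm38.p6. Of the 8 pancreas markers with a probe, 7 passed the control limit in every mouse, and their median ratio over all 8 was -0.013. Clps, the colipase of pancreatic juice, stood apart at a ratio of 3.37. Cela2a, Ctrb1, Cela3b and Pnlip lay at 0.024, -0.050, 0.097 and -0.089. Ins1 and Ins2, the insulin genes, lay at -0.24 and -0.15. Prss2, a trypsinogen, passed it on 0 of the 6 arrays.

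**Figure D3:**
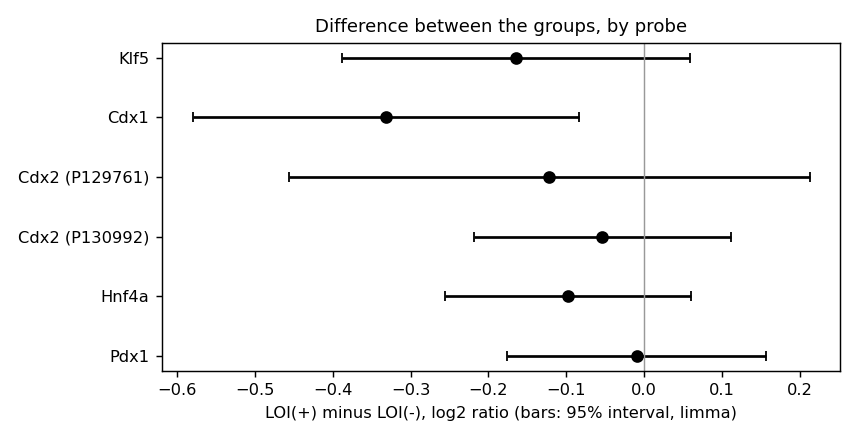
Difference between LOI(+) and LOI(-) in log2 ratio for each probe with its 95% interval from limma across all features, 3 mice per group. The interval of Cdx1 lies below 0 before adjustment over all features, and those of the other 5 probes include 0.

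A ratio near 0 does not separate a gene made in both RNAs from a probe that gives a similar signal without its gene. Markers of the stomach, which were not dissected, show the same reading. The 5 stomach genes with a probe had mean ratios from -0.035 (Atp4a, the acid pump) to 0.23 (Gkn2), with Cy3 signals from 440 to 961 over the arrays, and 4 of the 5 passed the control limit in every mouse. Both Cdx2 probes, with mean ratios of -0.035 and 0.014, fell in that span. Hnf4a and Pdx1, both at -0.24, lay below it, and Cdx1 at 0.84 and Klf5 at 3.07 above it. How much of the Cdx2, Hnf4a and Pdx1 signal comes from the gene itself was not tested.

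Other transcription factors of the intestinal epithelium were measured for comparison, from a list of 34 of which 31 had a probe. A total of 0 of 31 passed the fit across all features. The mean was lower in LOI(+) for 22 of 31 and higher for 9, and the median difference was -0.057, against 0.0030 for all features. With only the 4 mice whose labels give a sex, 17 of 31 were lower. Of the 31, 2 had an unadjusted p under 0.05 (6.15% of all features did). Ehf, an ETS factor of epithelia, had ratios of 3.12, 3.24 and 3.12 in LOI(-) and 3.55, 3.44 and 3.35 in LOI(+), without overlap, and differed by 0.29 ± 0.072 (SE). Nr1h4, the bile acid receptor FXR, had 2.64, 2.27 and 2.41 in LOI(-) and 1.95, 2.07 and 2.16 in LOI(+), also without overlap, and differed by -0.38 ± 0.11 (SE). Cebpb, a basic leucine zipper factor, followed by p at -0.34 ± 0.15 (SE).

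Close relatives of the factors ranged from well above the reference to near it. Gata5, a relative of the unread Gata4 and Gata6, lay clearly above the reference in every mouse, with 2.40, 2.33 and 2.36 for the LOI(-) mice and 2.41, 1.94 and 2.08 for the LOI(+) mice, a difference of -0.22 ± 0.12 (SE) with overlap. Hnf4g, the intestinal relative of Hnf4a, had ratios of 1.02, 1.10 and 1.23 in LOI(-) and 0.81, 0.99 and 1.31 in LOI(+), with overlap. Klf4, a Krüppel-like factor of differentiated cells, ranged from -0.54 to 0.23 and overlapped between the groups. Cdx4, the embryonic caudal factor, lay between -0.097 and 0.12, and Gsx1, a homeobox relative of Pdx1 and the caudal genes, between -0.15 and 0.072. These relatives were picked for description from the list after their values were seen.

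**Figure D4:**
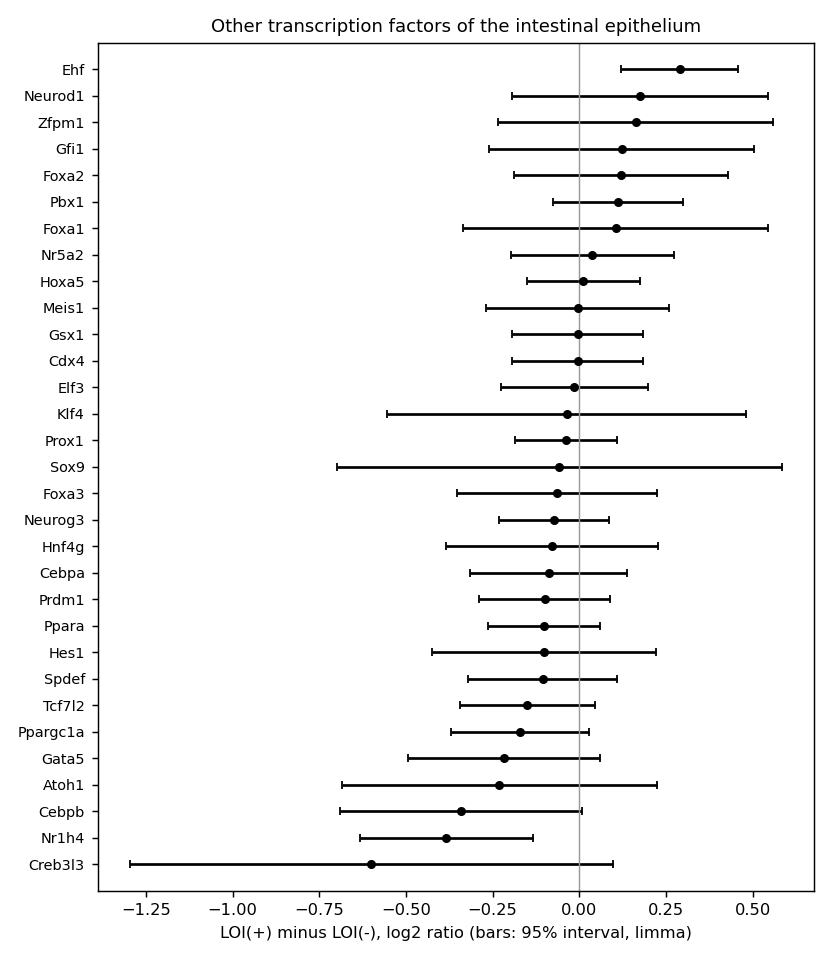
Difference between LOI(+) and LOI(-) in log2 ratio, with 95% intervals from limma, for the 31 other epithelial transcription factors with a probe, ordered by size. The points run from 0.29 for Ehf to -0.60 for Creb3l3, and 22 of 31 lie below 0.

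Creb3l3, a factor of lipid handling at the low end of that plot, had a feature left out as an outlier on LOI(-) 1, so its difference of -0.60 ± 0.28 (SE) rests on 2 LOI(-) arrays, with 0.79 on LOI(-) 3 and a higher value on LOI(-) 2. The LOI(+) arrays lay at 0.58 to 0.87 and overlapped with the lower of them.

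Genes known as targets of CDX and HNF factors stood above the reference in both groups, with mean ratios from 0.63 to 6.28. Of 28 written, 18 had a probe, with a median ratio of 3.37, and each of the 18 passed the control limit in every mouse. Between the groups 0 of 18 passed, 10 were higher and 8 lower, and the median difference was 0.011. With scale normalization between arrays 15 of 18 were higher, with a median of 0.26, so their common direction depends on the scaling. Those of smallest p were Krt20, a keratin of differentiated enterocytes, Apoc3, an apolipoprotein, and Cdh17, a cadherin activated by CDX2. Krt20 had ratios of 4.10, 4.14 and 4.19 in the LOI(-) mice and 3.97, 3.91 and 3.93 in the LOI(+) mice, lower in each LOI(+) mouse by a difference of -0.20 ± 0.054 (SE). Apoc3 had 0.59, 1.03 and 1.16 for the LOI(-) mice and 1.46, 1.76 and 1.31 for the LOI(+) mice, higher in each LOI(+) mouse, with a difference of 0.58 ± 0.17 (SE). Cdh17 read 5.40, 5.45 and 5.58 among LOI(-) mice and 5.72, 5.63 and 5.70 among LOI(+) mice, and differed by 0.21 ± 0.067 (SE). A set of 5 of the 18 had an unadjusted p under 0.05 (6.15% of all features did), 2 higher (3.93%) and 3 lower (2.22%), and 4 had no overlap of the arrays, which 11.3% of all features had.

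Since Gata4 and Pdx1 mark position along the gut and only Pdx1 could be read, position was described by genes of the upper and lower small intestine. Of the 11 upper genes with a probe, 9 had a higher mean in LOI(+), with a median difference of 0.26, and of the 11 lower genes, 11 had a lower mean, with a median of -0.16. Of all features, 51.3% had a higher mean in LOI(+), and their median difference was 0.0030. The upper genes with a higher mean were 8 of 11 in the Cy3 channel alone and with the mean of all probes. They were also 8 of 11 without LOI(-) 3 and with only the mice that have a sex label. The lower genes with a lower mean were 8 of 11 with scale normalization, without LOI(-) 3 and with only the mice that have a sex label. None of these 22 genes passed the fit across all features in limma. The lists were written with earlier results of these data known. Some genes are in several of the lists described here, so the counts of the lists are not independent. Tff3 is also among the targets and the goblet cell markers, and Guca2a among the targets. Fabp1 is also among the targets and the villus enterocyte markers, and Krt20 is in both of these and among the epithelial markers.

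Among the lower genes were Slc10a2, the ileal bile acid transporter, with 1.29, 0.54 and 0.64 among LOI(-) mice and 0.091, 0.14 and 0.17 among LOI(+) mice, a difference of -0.69 ± 0.18 (SE) without overlap. The Slc10a2 probe was dim, with Cy3 signals of 552, 475 and 471 in LOI(-) and 450, 462 and 444 in LOI(+). It passed the control limit on 6 of the 6 arrays but lay near it in LOI(+). Fabp6, the ileal bile acid-binding protein, read 1.81, -0.069 and 0.65 for the LOI(-) mice and 0.044, -0.045 and -0.099 for the LOI(+) mice, and 4 of the 6 arrays passed the control limit. Both genes were highest in LOI(-) 1, while Slc51b and Osr2 were highest in LOI(-) 3, at 4.14 and 1.93. The hormone gene Pyy differed by -0.60 ± 0.24 (SE), Guca2a, the guanylin gene, by -0.50 ± 0.21 (SE), and Slc51b, which exports bile acids, by -0.34 ± 0.26 (SE). Tff3, Mep1a, Osr2, Cyp4f14, Bcam and Fgf15 differed by -0.16 to -0.0066.

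Among the upper genes, Gstm3, a glutathione transferase, read -1.20, -0.87 and -1.13 for the LOI(-) mice and -0.66, -0.47 and -0.58 for the LOI(+) mice, a difference of 0.50 ± 0.10 (SE) without overlap. Slc2a5, the fructose transporter, differed by 0.24 ± 0.073 (SE) and Trpv6, a calcium channel, by 0.18 ± 0.081 (SE), also without overlap. Fabp1, a fatty acid-binding protein, read 4.88, 6.66 and 6.20 for the LOI(-) mice and 6.49, 6.52 and 6.95 for the LOI(+) mice, lowest in LOI(-) 1. The retinol-binding protein gene Rbp2 differed by 0.64 ± 0.37 (SE), and the remaining Gsta1, Slc2a2, Ckmt1, Slc46a1, Dgat2 and Slc40a1 lay between -0.16 and 0.53.

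**Figure D5:**
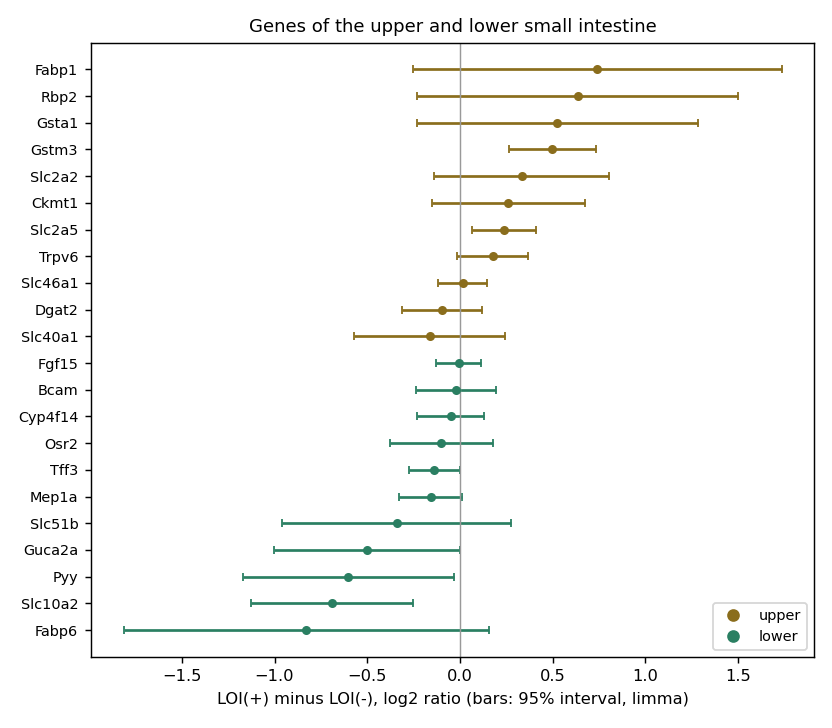
Difference between LOI(+) and LOI(-) in log2 ratio, with 95% intervals from limma, for genes of the upper (brown) and lower (green) small intestine, 11 of each. Of the upper genes 9 lie above 0, and the lower genes lie below 0, from -0.0066 for Fgf15 to -0.83 for Fabp6.

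The mean ratio of the upper genes minus that of the lower genes was -1.47, -0.56 and -1.10 in LOI(-) and -0.53, -0.37 and -0.44 in LOI(+). LOI(-) 2 lay beside the LOI(+) arrays, while LOI(-) 1 and LOI(-) 3 lay far below them. The Pdx1 signal was at the control limit, so its relation to this index says little about the gene. Over the 6 arrays the relation did not pass, with Pearson's r = -0.197 (exact permutation p = 0.74) and Spearman's rho = 0.143 (exact permutation p = 0.803), two-sided, for the 1 relation computed. Without LOI(-) 1 and LOI(-) 3, the farthest from the median of the index, r was 0.962 over 4 arrays, which are too few for a test here. The r over the 6 arrays thus rests largely on LOI(-) 1 and LOI(-) 3, and neither value is read as a relation. The planned relation for Gata4 was not computed. Beside the Cdx1 difference stand this index and the marker lists, none of which was tested as a list and none of whose members passed the fit in limma. Of the 9 epithelial markers 7 were lower in LOI(+), with a median difference of -0.14, and their mean ratio was 3.68 to 3.89 in LOI(-) and 3.56 to 3.64 in LOI(+). Of the 7 immune markers 6 were lower, with a median of -0.20, and their mean ratio was 0.47 to 0.62 in LOI(-) and 0.22 to 0.42 in LOI(+). Lyz2 at 4.01 and Cd74 at 2.53 raised that mean, while Ptprc was at -2.28 and the median ratio of the list was -0.038. Of the 3 goblet cell markers with a probe 3 were lower, with a median of -0.19, and of the 8 smooth muscle and fibroblast markers 6 were lower, with a median of -0.085. All 3 proliferation markers with a probe were higher, with a median of 0.54, and 5 of the 6 villus enterocyte markers, with a median of 0.18. Of the 3 Paneth cell markers 2 were lower, with a median of -0.16. Higher means were found for 2 of the 3 stem cell markers (median 0.19) and 4 of the 6 enteroendocrine markers (median 0.090). Of all features 51.3% had a higher mean in LOI(+), with a median difference of 0.0030. The part of these marker lists in the Cdx1 difference was not tested.

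Genes of other gut regions are given as a description only. A ratio near 0 does not show whether such a gene is made in the crypts, so these values do not check position. Of 13 written, 9 had a probe, and their mean ratios reached no higher than 0.22. Sox2, the foregut factor that opposes Cdx2, lay between -0.19 and 0.011. Barx1, a factor of stomach mesenchyme, lay between 0.024 and 0.20. The hindgut homeobox gene Hoxa13 lay between 0.058 and 0.45, Hoxb13 between -0.40 and -0.15 on 5 arrays, and Hoxd10 between -0.019 and 0.26, where 2 of the 6 arrays passed the control limit. Car1 and Aqp8, of the colon, lay between 0.089 and 0.27 and between -0.041 and 0.23. The stomach genes Tff1 and Gkn1 lay between -0.088 and 0.043 and between -0.049 and 0.12. Between the groups 0 of these 9 passed, 4 were higher and 5 lower.

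No pair of factors had a correlation over the 6 mice that passed after adjustment. Over the 10 pairs, r ran from -0.619 to 0.56. The strongest was Cdx2 with Pdx1, with Pearson's r = -0.619 (exact permutation p = 0.199, adjusted over 10 pairs 0.885) and Spearman's rho = -0.6 (exact permutation p = 0.242, adjusted 1). Without LOI(-) 2 and LOI(+) 3 r was -0.401. The 2 caudal genes had r = 0.266 (exact permutation p = 0.619, adjusted 0.885) and rho = 0.0857 (exact permutation p = 0.919, adjusted 1). Without LOI(-) 3 and LOI(+) 3 their r was 0.902, and that of Cdx1 with Pdx1 went from 0.283 to -0.922, so these values rest on those 2 mice.

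As a description, the named genes whose ratios over the 6 arrays were most like those of each factor were picked from 11684 genes that passed the control limit in every mouse. For Klf5 they were Kcnk7, a potassium channel subunit, with r = 0.999 and Ypel3 with r = 0.995. For Cdx1 they were Vmn1r29 with r = 0.982 and Jmjd6 with r = 0.981, and for Cdx2 Fam187a with r = 0.979 and Epha2, an ephrin receptor, with r = 0.977. For Hnf4a they were Pdk2, a kinase of pyruvate dehydrogenase, with r = 0.982 and Gsap with r = 0.974. These are the highest values among all the genes compared, over only 6 arrays. Between 63 genes (Cdx2, 0.539%) and 140 genes (Klf5, 1.2%) had an r over 0.9. Pdx1 was left out, since its Cy3 signal passed the limit on only 3 arrays.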

How the data were processed

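The members and gene lists were chosen with earlier results of these data known, and 1 member and 1 gene of a list are not reported here. Per the file headers, the authors deposited spot and local background intensity from Agilent's Feature Extraction software and a processed intensity. The deposited value table holds log10 values. It matched the log10 ratio of Cy3 over Cy5 plus each feature's mean log10 Cy5 over the arrays (r at least 0.998 over 41174 features). Genome build and the authors' test are not given in the sources used here.

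Spot means were background-corrected by normexp (offset 50) in limma 3.58.1 under R 4.3.3 and normalized by loess within arrays, with controls at weight 0 and outlier features left out. Values are log2 of Cy3 over Cy5, and dyes were not swapped. RefSeq's table named 15429 of the 41006 probes (37.6%), and the brightest probe in Cy3 stood for a gene. LOI(+) and LOI(-) were compared with lmFit and eBayes, two-sided, with Benjamini-Hochberg adjustment across 37939 genes and unnamed probes and a threshold of 0.05. The fit was tested on simulated data. Named genes were all members reported, the 3 of smallest p among other factors and targets, every regional gene and the 2 most alike genes per member. Relatives and markers named beside these are examples chosen after their values were seen. Precision is limited by there being 3 arrays in each group. The LOI(-) images were extracted before the LOI(+) images, and that order cannot be told apart from the groups.

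Same-numbered mice did not consistently deviate together, with correlations of -0.0885, -0.248 and 0.353, while LOI(-) 2 and LOI(+) 1 had 0.453. Deviations were taken from each group's own mean, so these values do not settle whether the numbers are pairs. The numbers were not taken as pairs in the main fit. Alternatives changed the background correction, the normalization, the signals used, the filter, the handling of probes, the model, the block and the mice included. Offsets of 0 and 10, and the lists without each array, were added after seeing the data.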

Additional observations from a re-analysis of the deposited data

How the results depend on the processing

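In each alternative 0 features passed an adjusted p of 0.05. The count at an unadjusted p under 0.05 went from 1498 to 3345 with an array left out, against 2335. With the replicate block 0 features passed, with 2460 at the unadjusted level. Cdx1 and Hnf4a kept their sign in every alternative run. Klf5 turned to 0.035 with scale normalization. Cdx2 turned sign only without an array, with a range from -0.21 to 0.040. Pdx1 turned to 0.072 in the Cy3 channel alone, 0.014 with only the mice with a sex label, and 0.067 and 0.024 with offsets of 0 and 10, was -0.12 with median centring, and ran from -0.049 to 0.046 with an array left out. The r of Pdx1 with the regional index turned to 0.262 in the Cy3 channel alone. The cause was not tested. Rquantile normalization left the ratios as they were by construction. The relation was not run with 1 array left out, since 5 arrays are under the minimum of 6 used for a test. Dim signals in Cy3 limit Pdx1 and Cdx1.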
